A study of Mus musculus with 34 samples.

Results

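The 10 genes that most clearly separated cumulus cells (CCs) of low weight gainers from those of the other mice kept on high-fat diet (HFD) for 16 weeks were Sun1, Dnm2, Slc25a39, Phactr2, Trrap, Pigt, Cttn, Arhgap5, Hdac4 and Epha2. They are described here across all 34 libraries. They were chosen by their counts in the 3 low weight gainers and the 7 mice of the 16-week HFD group, so the difference between these groups is a description and carries no test. The 10 symbols stood for 11 of the 25965 entries of the count table, because Hdac4 had 2 entries. The remaining 24 libraries took no part in the choice, and the genes were tested in those alone.

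All mice were C57BL/6J females that entered a protocol at 8 weeks of age, and each library came from about 50 CCs of a superovulated female. In the diet-induced obesity (DIO) protocol, mice ate chow (CD, with 11% of energy from fat) or HFD (58%) for 4 or 16 weeks. This gave 5 libraries of 4-week CD, 5 of 4-week HFD, 6 of 16-week CD, 7 of 16-week HFD and 3 of low weight gainers, which had also been on HFD for 16 weeks. In the leptin protocol, mice were injected with saline (16 C, 3 libraries) or leptin (16 L, 5 libraries) for 16 days. The sources used here state no weight below which a mouse was called a low weight gainer. They do not say which libraries were prepared together either, so protocol, age and preparation cannot be told apart between experiments.

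Cumulus cells are the granulosa cells that wrap the oocyte, feed it through actin-rich projections and are ovulated with it. The genes belong to several machines of such a cell. Cttn and Phactr2 bind actin or its regulators, Arhgap5 acts on GTPases, Sun1 ties the nucleus to the cytoskeleton, and Dnm2 and Epha2 work at the plasma membrane. Pigt acts in the endoplasmic reticulum, Slc25a39 in mitochondria, and Trrap and Hdac4 on chromatin.

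Libraries held between 1104611 and 13207018 counts, and those of low weight gainers between 3950156 and 6744712. Levels are given as TMM CPM, counts normalised to library sizes that were scaled by the trimmed mean of M-values (TMM), and are compared between libraries only. The granulosa genes Cyp11a1, Star and Inha were counted in every group, whereas 12 oocyte markers summed to at most 4.16 TMM CPM in low weight gainers. A few libraries stood apart. In 16 L replicate 18, 10 oviduct genes summed to 35020 TMM CPM, against 135 to 1883 in the other 4 libraries, and 14 cumulus and granulosa markers summed to 839.7, against 2739 to 4337. In 16-week CD replicates 1 and 2, the TMM factors were 1.37 and 1.32, against 0.764 to 0.987 in the other 4. In 4-week HFD replicate 5, the oocyte markers summed to 365.8 TMM CPM, against 1.70 to 3.50 in the other 4. Calls that rest on these libraries are also given without them.

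**Figure D1:**
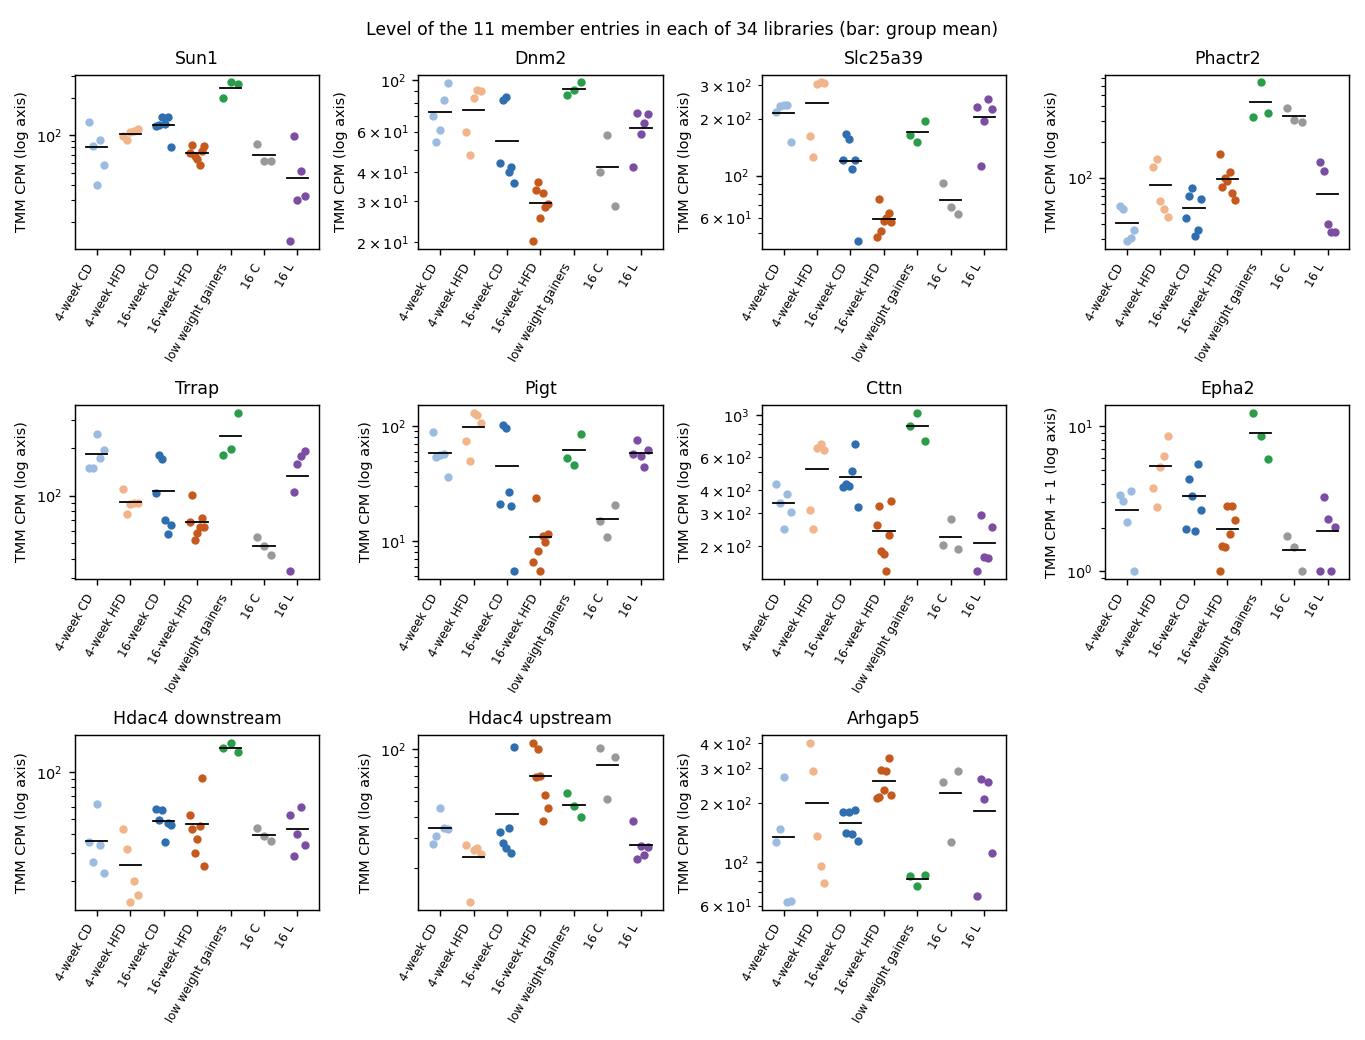
TMM CPM on a log axis (y) of the 11 entries in each of the 34 libraries, by group (x); points are libraries and bars are group means, and 1 was added to each value for Epha2. For Sun1, Cttn and the downstream Hdac4 entry the 3 low weight gainers lie above the other 31 libraries.

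Between low weight gainers and 16-week HFD, 9 entries were higher and 2 lower, and the libraries did not overlap for 10 of the 11. Over all 11258 genes fitted, the libraries did not overlap for 20.5%, and 20.7% passed an adjusted p of 0.05 in edgeR's quasi-likelihood test (1212 higher and 1118 lower). In that fit 8 entries ranked between 1 and 11 by p, while Epha2 ranked 150, the downstream Hdac4 entry 151 and the upstream one 4418. The genes interleaved with or just behind them were Lrp1 (rank 2, log2 fold change 1.71 ± 0.20 SE), Lama1 (rank 4, 1.59 ± 0.19), Gpam (rank 9, 1.58 ± 0.20), Ric8 (rank 12, 1.58 ± 0.22) and Prrc2a (rank 13, 2.05 ± 0.28). The library measures below also differed between these groups. Mitochondrial transcripts took 0.337% to 0.614% of counts in low weight gainers and 0.786% to 1.53% in 16-week HFD, and the cumulus and granulosa markers summed to 6463 to 7294 and to 4025 to 5547 TMM CPM. Of that list, 11 of 14 genes passed the filter on low counts, 2 were called higher (Cyp11a1 and Amhr2) and 2 lower (Ptgs2 and Inhba), with a median log2 fold change of -0.50. The higher sum was carried by Cyp11a1, which averaged 4623 TMM CPM in low weight gainers and 1851 in 16-week HFD. Amh was at 0 in all 3 low weight gainers and at 0 to 1.46 TMM CPM in 16-week HFD (mean 0.338), so it was barely counted in either group. Macrophage and neutrophil markers summed to 354.3 to 441.1 TMM CPM in low weight gainers and 213.1 to 721.7 in 16-week HFD. Of 11 that passed the filter, 1 was called higher and 0 lower. The part of these measures in the result was not tested, and fewer cells of a type cannot be told apart from less RNA per cell in such samples.

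Cttn encodes cortactin, which binds and stabilizes branched actin (chr7:144435733-144471009, minus strand, GRCm38). Its level was 875, 1035 and 726 TMM CPM in the low weight gainers, against 147 to 349 (median 229.7) in 16-week HFD and 326 to 706 (median 426) in 16-week CD. The low weight gainers were above every other library of the series, the nearest being a 16-week CD library at 706. The log2 fold change was 1.82 ± 0.25 (SE) against 16-week HFD and 0.90 ± 0.32 against 16-week CD. The entry shares 461 bases with Gm14376 on the same strand, which had at most 1 count in any library.

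Phactr2 encodes a regulator that binds actin and protein phosphatase 1 (chr10:13207717-13474396, minus strand). It stood at 324, 638 and 354 TMM CPM in low weight gainers, at 64.5 to 159 (median 93.8) in 16-week HFD and at 31.8 to 82.2 (median 55.2) in 16-week CD. The 4-week CD libraries had 57.6, 54.0, 28.9, 30.7 and 36.0 TMM CPM. Saline was the exception among the other groups, with 385, 309 and 294 TMM CPM in 16 C, and its highest library was the only one of the 31 to reach the low weight gainers. The log2 fold change was 2.97 ± 0.36 (SE) against 16-week CD and 3.45 ± 0.33 against 4-week CD, beside 2.11 ± 0.27 against 16-week HFD, whose mean lay above both chow means. These 3 fits share the low weight gainers, so their values stand side by side and are not separate evidence.

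Arhgap5 encodes p190-B, a GTPase-activating protein (chr12:52516077-52567852, plus strand), and it went the other way. Its level was 84.6, 75.6 and 86.4 TMM CPM in low weight gainers, 210.2 to 337 (median 233) in 16-week HFD and 127 to 184 (median 159) in 16-week CD. The low weight gainers lay below both 16-week groups, and 16-week HFD above 16-week CD, with no overlap between any of the 3. The means were 82.2 ± 5.75, 257 ± 50.3 and 158 ± 25.3 TMM CPM (SD, n = 3, 7 and 6). In the other experiments the spread was wide, at 62.9 to 271 in 4-week CD and 77.9 to 403 in 4-week HFD, and 4 of the 31 other libraries reached the range of the low weight gainers.

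Sun1 encodes an inner nuclear membrane protein of the LINC complex, which couples the nuclear lamina to the cytoskeleton (chr5:139200637-139249840, plus strand). Low weight gainers had 198, 265 and 259 TMM CPM, 16-week HFD 57.2 to 83.4 (median 71.7) and 16-week CD 79.8 to 140.4 (median 122). The 4-week CD libraries had 128, 82.1, 39.5, 90.8 and 58.1 TMM CPM. In TMM CPM no other library reached the low weight gainers, which averaged 241 ± 37.1 (SD, n = 3). In RPM, 16-week CD replicate 2, at 182.8, was above low weight gainers replicate 21, at 177.6. Of the 7 libraries of 16-week HFD, 5 were below all of 16-week CD. The log2 fold change was 1.70 ± 0.18 (SE) against 16-week HFD, 0.99 ± 0.26 against 16-week CD and 1.65 ± 0.31 against 4-week CD.

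At the plasma membrane, Dnm2 encodes dynamin-2, the GTPase that pinches off endocytic vesicles (chr9:21424908-21507759, plus strand). Its level was 86.0, 91.1 and 97.8 TMM CPM in low weight gainers, 20.2 to 36.2 (median 29.2) in 16-week HFD and 36.0 to 84.5 (median 42.9) in 16-week CD. The upper end of 16-week CD was set by replicates 1 and 2, at 82.1 and 84.5, while the other 4 lay between 36.0 and 43.7. In 4-week CD it was 70.1, 54.3, 60.7, 81.8 and 96.8, so low weight gainers and young chow mice overlapped. The entry shares 380 bases with Tmed1 on the opposite strand, and the library kit does not mark strand. Tmed1 averaged 122.5 TMM CPM in low weight gainers and 96.1 in 16-week HFD.

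Epha2 encodes a receptor tyrosine kinase for ephrin-A ligands (chr4:141301240-141329384, plus strand), and it was the least counted of the genes. The low weight gainers had 69, 25 and 19 counts, which were 11.4, 7.56 and 4.94 TMM CPM. The 16-week HFD libraries had 0 to 7 counts and 0 to 1.82 TMM CPM (median 0.806), and the 16-week CD libraries 0.884 to 4.51 (median 1.99). Its highest values elsewhere were 5.25 and 7.52 TMM CPM in 4-week HFD replicates 4 and 5, within the range of the low weight gainers. Replicate 5 is the library with high oocyte markers, and without it replicate 4 alone, at 5.25, reached that range. The log2 fold change was 3.00 ± 0.54 (SE) against 16-week HFD and 1.80 ± 0.54 against 16-week CD. The 16-week HFD library with 0 counts allows up to 0.723 RPM (3 counts of its total, unscaled), which covers counting error only.

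In the endoplasmic reticulum, Pigt is a subunit of the transamidase that attaches glycosylphosphatidylinositol (GPI) anchors to proteins (chr2:164497520-164508301, plus strand). Low weight gainers had 52.6, 46.0 and 85.8 TMM CPM, and 16-week HFD 5.46 to 23.9 (median 9.84). In 16-week CD, replicates 1 and 2 had 103 and 95.3 TMM CPM, and the other 4 had 5.50 to 26.9. The level of the low weight gainers was also that of 4-week CD (88.8, 54.3, 56.0, 56.8 and 36.4 TMM CPM), and 15 of the 31 other libraries reached it. The lowest groups were 16-week HFD and 16 C, with means of 10.9 ± 6.13 and 15.5 ± 4.78 TMM CPM (SD, n = 7 and 3).

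Slc25a39, the mitochondrial carrier that brings in glutathione (chr11:102402985-102407946, minus strand), had 164, 151 and 193 TMM CPM in low weight gainers. It was 47.3 to 75.5 (median 57.3) in 16-week HFD and 45.1 to 166 (median 121) in 16-week CD. The 4-week CD libraries had 217, 233, 236, 236 and 150.3 TMM CPM, of which 4 were above the low weight gainers and the fifth just below them, and 14 of the 31 other libraries reached them. The 16-week HFD group was the low one here, with a mean of 58.9 ± 9.14 TMM CPM (SD, n = 7), and the highest mean was that of 4-week HFD (242 ± 90.7, n = 5).

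On chromatin, Trrap encodes the scaffold of several histone acetyltransferase complexes (chr5:144768092-144859778, plus strand). Low weight gainers had 182, 197 and 334 TMM CPM, 16-week HFD 52.7 to 101 (median 63.65), and 16-week CD 56.9 to 179 (median 87.3). The 16-week CD values again split into replicates 1 and 2 (179 and 169) and the other 4 (56.9 to 104). In 4-week CD the level was 149, 149, 244, 174 and 194, which overlapped low weight gainers, and the log2 fold change between them was 0.42 ± 0.30 (SE).

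Hdac4, a class IIa histone deacetylase that moves between cytoplasm and nucleus, was counted as a downstream entry (chr1:91928785-91931176) and an upstream entry (chr1:91932757-92148393), both on the minus strand. In GENCODE M21 the downstream entry lay wholly inside the 3′ UTR of an annotated transcript and overlapped none of its 26 coding exons, while the upstream entry had the span of another annotated transcript and covered all 26. The entries behaved differently. The downstream one was 143, 155 and 134 TMM CPM in low weight gainers, against 24.98 to 91.4 (median 42.9) in 16-week HFD and 35.7 to 58.3 (median 48.05) in 16-week CD, and no other library of the series reached them. The upstream one was 55.2, 46.3 and 40.1 TMM CPM in low weight gainers, inside the 37.9 to 109 (median 68.7) of 16-week HFD and the 24.4 to 103 of 16-week CD. The log2 fold change against 16-week HFD was 1.58 ± 0.28 (SE) for the downstream and -0.61 ± 0.31 for the upstream entry, so a change of Hdac4 as a gene cannot be stated from either alone.

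Of all Hdac4 counts, the downstream entry held 75.4% ± 2.79 (SD, n = 3) in low weight gainers, from 72.2% to 77.1%. It held 40.3% ± 13.6 (23.1% to 62.8%, n = 7) in 16-week HFD and 57.3% ± 14.4 (30.7% to 68.5%, n = 6) in 16-week CD. The share was 33.9% ± 8.17 in 16 C, 60.5% ± 6.42 in 16 L, 49.9% ± 7.44 in 4-week CD and 50.5% ± 15.2 in 4-week HFD. Low weight gainers had the highest share, above all other libraries, of which the nearest was a 4-week HFD library at 71.6%. Libraries were primed on poly(A), and which transcript ends gave these reads was not tested.

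**Figure D2:**
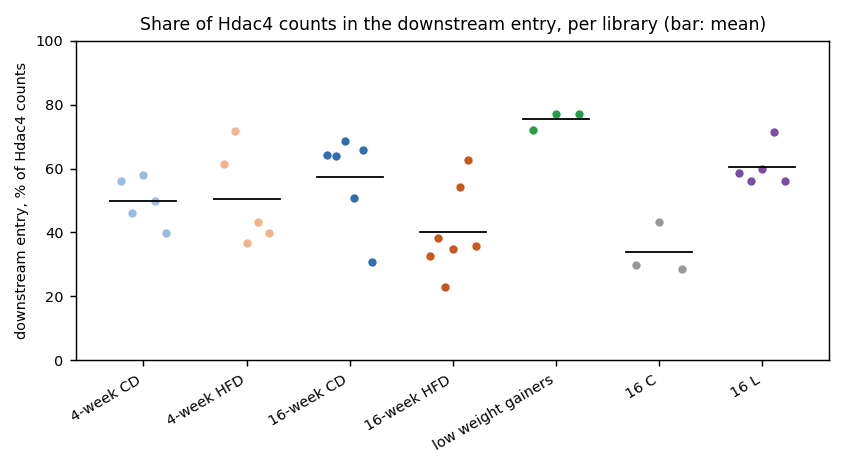
Percentage of all Hdac4 counts that fell in the downstream, 3′ UTR entry (y) for each library by group (x); points are libraries and bars are group means. The 3 low weight gainers lie between 72.2% and 77.1%, above every other library.

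For 9 of the 10 genes RefSeq (GRCm38.p6) gave promoter windows, of which the 250 bases before the start were read, 11 windows in all. The windows of Sun1 and Arhgap5 are shown, for these reasons. In TMM CPM, Sun1 was among the 3 entries that set low weight gainers apart from all other libraries. Arhgap5 was the gene that was lower, and both windows end at the base before the counted entry. Of the other entries that stood apart, Cttn had no window, and the window of Hdac4 lay 31948 bases beyond the 5′ end of the upstream entry. They are written 5′ to 3′ on the strand of the gene, and capitals mark matches on either strand to the GC box (GGGCGG), the CCAAT box or the TATA box (letters TATAAA).
Sun1 (chr5:139200387-139200636, plus strand): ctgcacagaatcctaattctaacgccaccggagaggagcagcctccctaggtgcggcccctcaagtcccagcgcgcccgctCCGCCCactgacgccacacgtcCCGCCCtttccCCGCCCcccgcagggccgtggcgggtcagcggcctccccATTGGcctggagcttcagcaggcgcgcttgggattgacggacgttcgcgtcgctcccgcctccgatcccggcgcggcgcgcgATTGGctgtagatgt
Arhgap5 (chr12:52515827-52516076, plus strand): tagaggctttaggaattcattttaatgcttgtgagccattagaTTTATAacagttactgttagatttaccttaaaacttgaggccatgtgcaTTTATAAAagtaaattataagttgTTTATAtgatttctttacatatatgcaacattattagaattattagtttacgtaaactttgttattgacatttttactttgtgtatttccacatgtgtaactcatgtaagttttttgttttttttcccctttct
The Sun1 window shown held 3 GC boxes and 2 CCAAT boxes at 70% GC. A second Sun1 window (chr5:139214908-139215157), inside the counted entry, had 43.6% GC with 1 match each to the CCAAT and TATA letters and 0 GC boxes. The Arhgap5 window had 26.4% GC with 4 matches to the TATA letters, of which a pair overlapped, and neither of the other motifs. Of the 11 windows, 6 had a GC box, beside 32.7% of all 32851 windows, and 6 a CCAAT box (33.8%). The TATA box was in 2 (12.4%), the E box, CACGTG, in 0 (6.02%) and the STAT-type site, TTCNNNGAA, in 0 (7.02%). By gene, 6, 4, 2, 0 and 0 of 9 had these motifs, and Sun1 and Pigt had 2 windows each. A match is a description of these letters and not a site in use.

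Against 16-week CD, the libraries of low weight gainers did not overlap for 8 of 11 entries, beside 7.56% of all 11620 genes. Sun1, Dnm2, Phactr2, Trrap, Cttn, Epha2 and the downstream Hdac4 entry were higher and Arhgap5 was lower, while Pigt, Slc25a39 and the upstream Hdac4 entry overlapped. The count was 10 of 11 without 16-week CD replicates 1 and 2 (chosen after seeing the data), and then the log2 fold change of Pigt went from 0.41 to 1.75 and that of Dnm2 from 0.72 to 1.19. The count was 5 of 11 in RPM on unscaled totals. For these other settings the share of all genes is not given. Against 4-week CD, 5 of 11 did not overlap, beside 44.1% of all 11953 genes. These contrasts share the low weight gainers with the one that chose the genes, so a lack of overlap was favoured by the choice. Their counts are given as a description. Over the whole table, edgeR called 1 of the 11620 genes in low weight gainers against 16-week CD.

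Between 16-week HFD and 16-week CD, Arhgap5 alone did not overlap, 1 of 11 entries beside 1.00% of all 10861 genes. Of the 10 entries that passed the filter, 7 were lower and 3 higher in 16-week HFD. Pigt had a log2 fold change of -2.07 ± 0.54 (SE), Slc25a39 -1.02 ± 0.25, Cttn -0.94 ± 0.25, Dnm2 -0.91 ± 0.25 and Sun1 -0.74 ± 0.18, and Phactr2 was at 0.82 ± 0.27. Without 16-week CD replicates 1 and 2, Pigt was at -0.68, Dnm2 at -0.41 and Trrap went from -0.66 to -0.06. Without 16-week CD replicate 9, 6 of 11 entries did not overlap, with no share of all genes given for that setting. This contrast shares the 16-week HFD libraries with the one that chose the genes and is given as a description. Over the whole table, edgeR called 3 of the 10861 genes in 16-week HFD against 16-week CD.

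The genes were tested in the 24 libraries that had no part in the choice, first for HFD at 4 weeks. Trrap was the 1 entry of 11 that passed, beside 4.26% of all 11727 genes. It was 110, 76.7, 88.2, 89.7 and 90.2 TMM CPM in 4-week HFD, below all 5 libraries of 4-week CD, and fell by 1.04 ± 0.23 (SE) on the log2 scale (adjusted p = 0.0275, edgeR with Benjamini-Hochberg adjustment). The call was lost without any one of 4-week CD replicates 2, 7 and 8 and of 4-week HFD replicates 3, 4, 5 and 14, with adjusted p-values between 0.0534 and 0.0874. Without 4-week CD replicate 11, Phactr2 passed too (adjusted p = 0.0428, edgeR). At an unadjusted p of 0.05, 5 of the 11 passed, and the share of all genes at that threshold is not given to read this count by. Phactr2 was at 1.03 ± 0.33 (adjusted p = 0.0814, edgeR), with 123 and 142 TMM CPM in replicates 13 and 14 and 46.6 to 63.2 in the other 3. In Sun1, Cttn and the downstream Hdac4 entry, low weight gainers exceeded all libraries in TMM CPM. These entries had log2 fold changes of 0.34 ± 0.26, 0.57 ± 0.31 and -0.53 ± 0.34, none of which passed.

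Leptin injection, 16 L against 16 C, gave 4 calls among the 10 entries tested, beside 8.56% of all 11723 genes. Phactr2 fell by 2.17 ± 0.54 (SE) on the log2 scale (adjusted p = 0.0413, edgeR), from the 16 C level given above to 137, 115, 40.2, 34.7 and 34.6 TMM CPM. The upstream Hdac4 entry fell by 1.53 ± 0.34 (adjusted p = 0.0312, edgeR), from 103, 51.1 and 89.7 TMM CPM to 22.6 to 37.6. Pigt rose from 15.1, 10.9 and 20.4 TMM CPM to 57.7, 75.5, 54.5, 44.3 and 62.1, a log2 fold change of 1.94 ± 0.35 (adjusted p = 0.0188, edgeR). Slc25a39 rose by 1.47 ± 0.39 (adjusted p = 0.0461, edgeR), from 91.2, 68.2 and 62.8 TMM CPM to 113 to 255. In all 4 the libraries of 16 L and 16 C did not overlap. The share of all genes without overlap is not given for this comparison, so that count has nothing to be read by. Log2 fold changes over the whole fit had a median of 0.27.

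Markers of other cell types also differed between these groups. The cumulus and granulosa markers summed to 4402, 5337 and 5227 TMM CPM in 16 C, above all of 16 L (839.7 to 4337), and of 12 genes that passed the filter 0 were called higher and 1, Star, lower (median log2 fold change -0.14). The oviduct genes summed to 217.9, 203 and 227.2 TMM CPM in 16 C, below 4 of the 5 libraries of 16 L, at 35020, 1443, 1883 and 677.8, and above replicate 19 at 135. Of 8 that passed the filter 1 was called higher and 0 lower, and Foxj1, Wfdc2 and Muc1 were at 0 in all of 16 C. The 3 red blood cell genes summed to at most 30.15 TMM CPM in 16 C and reached 10810 in 16 L replicate 18 and 1917 in replicate 21. Theca and stroma genes summed to 0.754 to 4.49 TMM CPM in 16 C and 4.26 to 1897 in 16 L. Macrophage and neutrophil genes summed to 161.4 to 809.7 in 16 C and 93.65 to 1464 in 16 L. In both of these lists 0 genes were called. The part of these cells in the leptin result was not tested.

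The calls were lost when single libraries were left out. Without 16 C replicate 1, 2 or 3 or without 16 L replicate 20 or 23, 0 of the 10 passed, and without 16 L replicate 21 only Pigt did. Over all libraries left out in turn the adjusted p-value reached 0.105 for Pigt, 0.153 for the upstream Hdac4 entry, 0.164 for Phactr2 and 0.198 for Slc25a39, and no direction changed among the 4. Without 16 L replicate 18, which stood apart in its oviduct genes, 5 passed, the 4 above and Trrap (log2 fold change 1.62, adjusted p = 0.00209, edgeR). Epha2 did not pass the filter here, with 0, 22, 3, 0 and 3 counts in 16 L and 1, 4 and 0 in 16 C. Its mean log2(CPM + 1) was 0.32 higher in 16 L (exact permutation test, two-sided p = 0.571, the smallest possible being 0.0179).

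**Figure D3:**
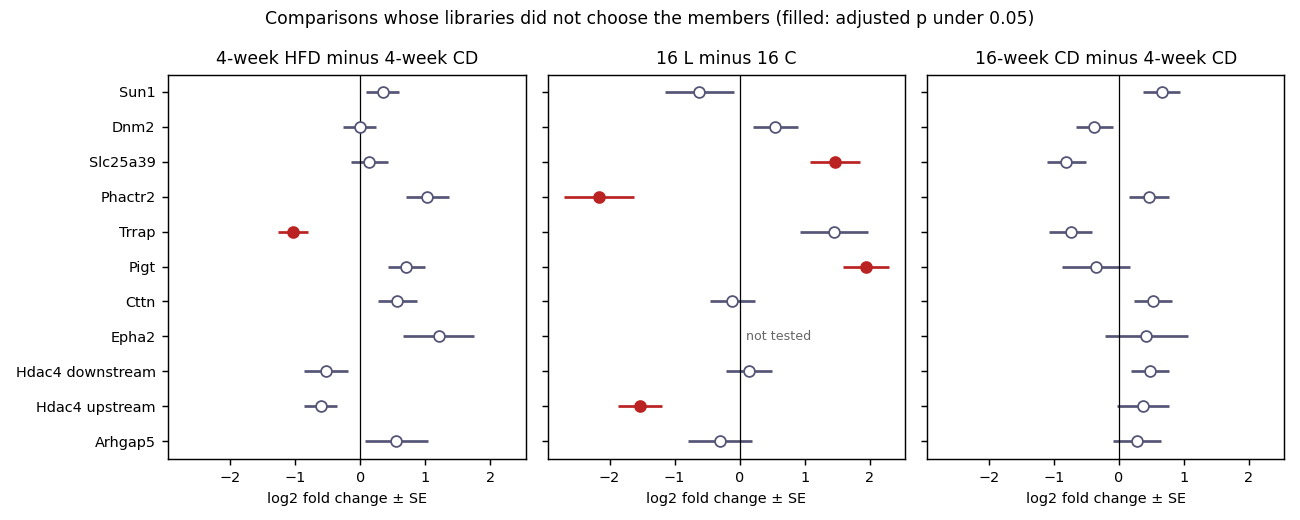
log2 fold change with its SE (x) of the 11 entries (y) in the 3 comparisons whose libraries did not choose the genes; filled points passed an adjusted p of 0.05. Trrap at 4 weeks of HFD and Phactr2, Pigt, Slc25a39 and upstream Hdac4 after leptin are filled, and none is in the comparison of chow groups.

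Between the chow groups, 16-week CD against 4-week CD, 0 of 11 entries passed in edgeR, beside 16.6% of all 11645 genes. At an unadjusted p of 0.05, 3 did, which were Slc25a39 (-0.81 ± 0.30 SE), Trrap (-0.74 ± 0.33) and Sun1 (0.66 ± 0.29). DESeq2 called 1 and limma-voom 7. Without 16-week CD replicates 1 and 2, 4 passed, all of them lower in 16-week CD: Pigt at -1.56, Trrap at -1.20, Slc25a39 at -1.02 and Dnm2 at -0.74. Without replicate 1 alone, 2 passed, and without 4-week CD replicate 11, 1 did. For the unadjusted p and these other settings the share of all genes is not given.

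Set out by mean level over the 7 groups, low weight gainers stood first for Sun1, Dnm2, Phactr2, Trrap, Cttn, Epha2 and the downstream Hdac4 entry and last for Arhgap5. Pigt and Slc25a39 were highest in 4-week HFD and the upstream Hdac4 entry in 16 C. Of the 66 pairs of neighbours in these orders, 4 had libraries that did not overlap in TMM CPM. They were low weight gainers over 16-week CD for Sun1 and for the downstream Hdac4 entry, low weight gainers over 4-week HFD for Cttn, and 16 C over 16-week HFD for Phactr2. In the other 62 pairs the libraries overlapped, and differences between neighbours were not tested.

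In the 24 libraries that did not choose them, after group means were removed and signs set by the direction in low weight gainers, the 55 pairs of entries had a median Pearson r of 0.23, from -0.67 to 0.68. Over all pairs of 13205 genes the median was 0.039, with quartiles of -0.24 and 0.31. Of the 55 pairs, 38 were above 0 (53.7% of all pairs were) and 6 above 0.5 (11.7% of all pairs). The median was 0.0929 without the 16-week CD libraries. Pigt and Slc25a39 had the highest r, 0.68, while Cttn and the downstream Hdac4 entry had the lowest, -0.67. The genes whose profile was most like the mean of the entries over these libraries were Crat (r = 0.934), Yipf3 (0.925), Vps37c (0.921), Ppm1g (0.919) and Ap1b1 (0.912). These values are descriptive, since the libraries share depth and amplification.

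Genes known to work with each of the 10 were then read in low weight gainers against 16-week HFD. Rises and falls are against that group alone, and levels in chow mice are given for a few of these genes. Of the partners named below, Efna1, Afg3l2 and Gsr lay above all of 16-week CD, and Syne2, Pgap1 and Atxn7 below. The other named partners overlapped 16-week CD. Over all 11620 genes, 7.56% did not overlap there. The partners were named for calls in a contrast that shares the low weight gainers, so this is a description. Of 158 partner entries, 135 passed the filter, 17 were called higher and 18 lower, 35 in all. That is 25.9% of the 135, beside 20.7% of all genes, and the median log2 fold change was -0.03 both here and over all genes fitted. The number called fell to 12, 19 and 10 without low weight gainers replicate 21, 22 or 23. The share of all genes is not given for these settings, so the fall cannot be read as particular to the partners.

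Partners of Pigt included Gpaa1, the called partner that rose most against 16-week HFD. Of 18 entries for the transamidase and GPI synthesis, 3 were called higher and 1 lower (median 0.00). Gpaa1 and Pigs, which sit in the same transamidase, were at 27.5 to 46.0 and 116 to 161 TMM CPM in low weight gainers against 5.62 to 19.01 and 27.8 to 64.3 in 16-week HFD. Their log2 fold changes were 1.74 ± 0.30 and 1.34 ± 0.24 (SE; adjusted p = 0.00178 and 0.00196, edgeR). Of the 2 entries of Pigb, a mannosyltransferase of the anchor, 1 rose by 0.88 ± 0.28 and the other was not called. Pgap1, which remodels the anchor, fell by 1.29 ± 0.32. In 16-week CD, Gpaa1 was at 6.33 to 58.2 TMM CPM and Pigs at 24.2 to 126, and both overlapped low weight gainers. In 4-week CD, Gpaa1 overlapped them (35.2 to 63.1) and Pigs lay below (44.15 to 101.5).

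Of 19 cortactin and branched actin genes, cofilin Cfl1 was called higher (0.73 ± 0.22) and the Arp2/3 subunits Actr2 (-1.04 ± 0.35) and Arpc3 (-0.87 ± 0.29) lower (median -0.21).

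Among partners of Dnm2 in clathrin endocytosis, 3 of 15 were called higher and 1 lower (median 0.02). The endophilin Sh3gl1 rose by 1.71 ± 0.31 (SE), the adaptor subunit Ap2m1 by 1.11 ± 0.22 and the amphiphysin Bin1 by 0.93 ± 0.28. The adaptor subunit Ap2b1 fell by 0.62 ± 0.21. For all of these, low weight gainers and 16-week CD overlapped. Sh3gl1 was at 28.1 to 51.8 TMM CPM in low weight gainers and 6.05 to 72.6 in 16-week CD, and Bin1 at 18.5 to 28.9 and 12.65 to 33.2. Of 11 LINC and lamina genes beside Sun1, lamin Lmnb1 (0.78 ± 0.25) and Banf1 (0.72 ± 0.23) were higher and the nesprin Syne2 lower (-0.81 ± 0.22, median -0.14). For Eph receptors and ephrins, 9 of 19 passed the filter, and the ligand Efna1 was higher (1.02 ± 0.33) and the receptors Epha4 (-2.36 ± 0.70), Epha3 (-1.68 ± 0.54) and Epha7 (-0.69 ± 0.24) lower (median -0.69). Epha3 and Epha4 were at or under 8.81 TMM CPM in all libraries of both groups.

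Of 13 genes around mitochondrial glutathione, 5 were called higher and 1 lower (median 0.14). Thioredoxin reductase Txnrd2 rose by 0.97 ± 0.23 (SE), the protease Afg3l2 by 0.95 ± 0.23 and glutathione reductase Gsr by 0.84 ± 0.27, while glutathione peroxidase Gpx1 fell by 0.86 ± 0.25. Of 24 subunits of the TRRAP complexes, Taf6l was higher (0.88 ± 0.27) and Epc2 (-1.39 ± 0.26) and Atxn7 (-1.07 ± 0.30) lower (median 0.07). Of 12 genes around class IIa deacetylases, the corepressor deacetylase Hdac3 was higher (0.75 ± 0.20) and the transcription factors Bcl6 (-1.24 ± 0.29) and Mef2a (-0.98 ± 0.24) lower (median -0.15).

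**Figure D4:**
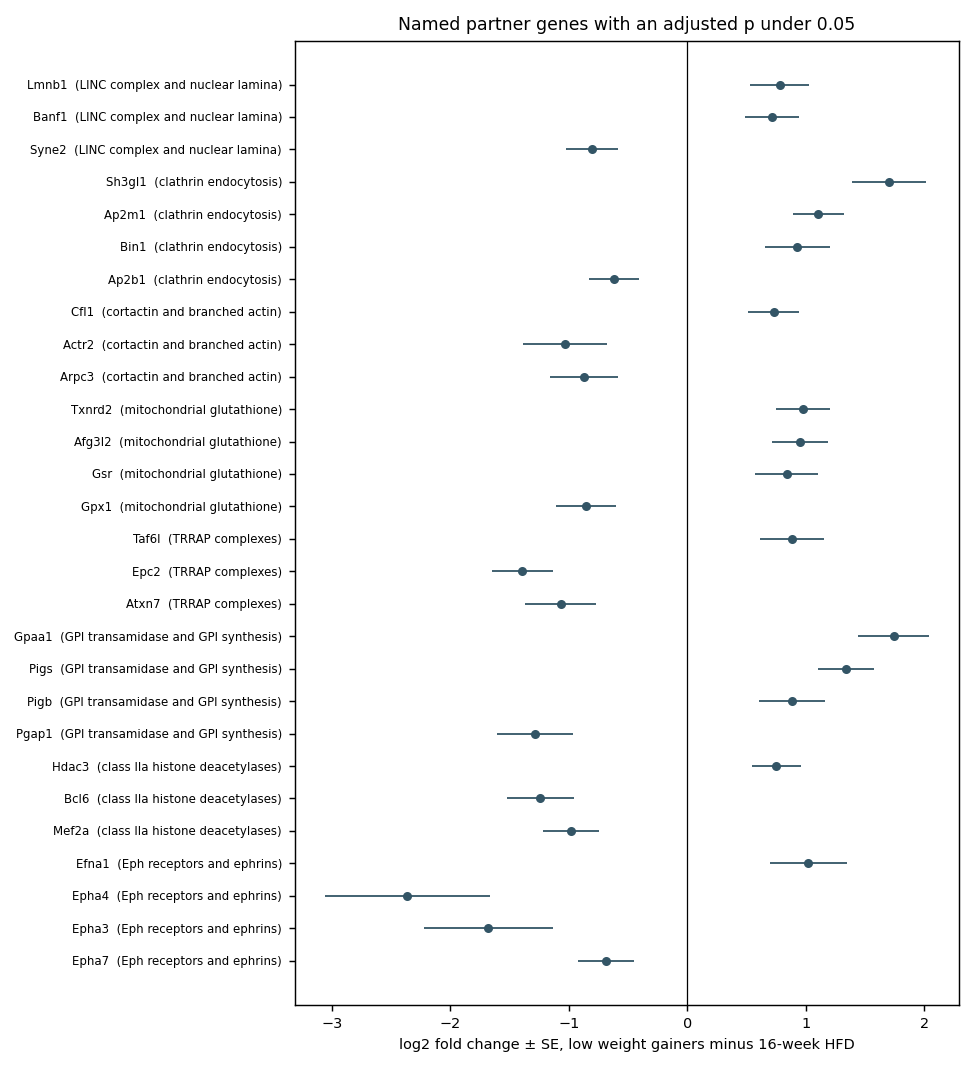
log2 fold change with its SE (x), low weight gainers minus 16-week HFD, of the named partner genes (y, with the list each belongs to), all of which passed an adjusted p of 0.05. Gpaa1 and Sh3gl1 are the highest, at 1.74 and 1.71, and Epha4 the lowest, at -2.36.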

How the data were processed

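Cumulus cell RNA was captured on oligo-dT beads, amplified by Smart-seq2 and made into Nextera XT libraries, which do not mark strand. The deposited table holds raw read counts per gene entry made by the authors, who per the labels used Trim Galore 0.4.2, HISAT2 2.0.5 and GRCm38; the counting program and annotation are not given in the sources used here. All 34 libraries were mapped to groups by their titles. Replicates are separate mice as far as the labels tell; no 2 libraries of a group were identical (72 pairs, smallest chi-square per degree of freedom 3.27).

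The 10 genes, the partner lists and the marker lists were chosen with earlier results of these data known. Counts were fitted over the whole table with edgeR 4.0.16 (R 4.3.3; TMM, filterByExpr, robust quasi-likelihood F-test, two-sided, own groups only), with Benjamini-Hochberg adjustment over all genes tested and a threshold of 0.05. SE is the log2 fold change over the root of F. The code was tested on simulated counts. For the 10 genes, in the contrast that chose them and in those sharing its libraries, folds and overlap of libraries are given with no p; partner genes, which are not among the 10, keep theirs. Named partner genes are at most the 3 largest rises and 3 largest falls per list among those called; Syne3, Hbb-bs and Hbb-bt did not match the table. The values of 1 partner list, which stays in the totals over partner genes, are not reported here. Promoters came from RefSeq. Alternatives were DESeq2 1.42.0, limma-voom 3.58.1, other normalizations, no filter, one fit of all libraries, leaving out each library, and, chosen after seeing the data, leaving out 16-week CD replicates 1 and 2. Intervals of depth cover counting error only.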

Additional observations from a re-analysis of the deposited data

Results flagged for a closer look

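For each entry, every group of 4 to 10 libraries was searched for a library far from the rest. Dixon's 95% criterion was applied to 55 groups, and 8 libraries were found. Its rate of about 1 in 20 groups by chance holds for independent, normally distributed values. The entries share libraries and the distribution of TMM CPM was not tested, so the 8 are not to be read as an excess. In 16-week HFD these were the downstream Hdac4 entry in replicate 16 (91.4 TMM CPM against 24.98 to 53.2 in the other 6), Pigt in replicate 11 (23.9 against 5.46 to 11.4) and Trrap in replicate 11 (101 against 52.7 to 72.5). In 16-week CD, replicate 9 stood apart for Sun1 (79.8 against 119.5 to 140.4) and for the upstream Hdac4 entry (103 against 24.4 to 34.5). The upstream Hdac4 entry also stood apart in 16 L replicate 18 (37.6 against 22.6 to 26.8) and in 4-week HFD replicate 14 (12.7 against 24.2 to 27.2). In 4-week CD, Slc25a39 was low in replicate 8 (150.3 against 217 to 236).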

How the results depend on the processing

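Shares of all genes are given for the main settings only, so the counts below show how far each result moved. For HFD at 4 weeks the number of entries called was 2 with DESeq2, 7 with limma-voom, 0 with all 34 libraries in one fit, and 0 to 2 with single libraries left out. For 16 L against 16 C it was 7 with limma-voom, 2 without a filter, and 0 to 5 with single libraries left out. For 16-week CD against 4-week CD it was 1 with DESeq2, 7 with limma-voom, 1 with all 34 libraries in one fit, 4 without 16-week CD replicates 1 and 2, and 0 to 2 with single libraries left out. Entries without overlap numbered 5 against 16-week CD in RPM on unscaled totals (8 to 9 with single libraries left out). Between 16-week HFD and 16-week CD they were 2 under RLE normalization, 0 in RPM, and 1 to 6 with single libraries left out. In the contrast that chose the genes they were 10 throughout, and calls among partner genes ranged from 10 to 45 with single libraries left out.

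Directions turned in 14 cases among the tested comparisons, none of them past the threshold, and in 7 among the described ones. The latter were Pigt against 4-week CD (from 0.12 to -0.17 without low weight gainers replicate 23, and -0.0034 without 4-week CD replicate 8), the upstream Hdac4 entry against 16-week CD (from 0.17 to -0.058 without 16-week CD replicates 1 and 2) and, in 4 settings, the downstream entry in 16-week HFD against 16-week CD (from -0.060 to at most 0.058). Dnm2 at 4 weeks of HFD was 0.0126 with DESeq2, 0.0159 with all 34 libraries, 0.0993 with limma-voom and 0.0276 without a filter, and from -0.11 to 0.14 with single libraries left out. After leptin, the downstream Hdac4 entry ranged from -0.0489 (without 16 L replicate 18) to 0.275 with single libraries left out, and Cttn from -0.244 to 0.0935 (without 16 C replicate 2), with 0.0066 in limma-voom. The upstream Hdac4 entry between chow groups ranged from -0.27 (without 16-week CD replicate 9) to 0.51. The cause was not tested. The chow groups share replicate numbers 1, 2 and 8. Deviations of same-numbered libraries correlated at -0.273, -0.0335 and -0.239, so they gave no sign of pairing by number. Such correlations over whole libraries cannot exclude a pairing, since depth and amplification also enter them. With a replicate block 0 entries were called, as without it, and the log2 fold changes of the upstream Hdac4 entry and Pigt became -0.53 and 0.26.

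Depth limits Epha2 most, with 0 to 36 counts in each library outside low weight gainers. With 3 low weight gainers and 3 saline libraries, small differences could not be seen. Overlap of libraries depends on group size, so counts of entries without overlap are to be read only beside the share of all genes.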
